A study of Mus musculus with 10 samples.

Results

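Transcripts of 9 complement genes were followed in mouse hearts labelled control or Prdm16 knockout at 3 and 12 months of age. The genes, C7, C6, C3, C4b, C1qa, C1qb, C1qc, C1s1 and Serping1, were found by symbol in both expression tables, as 9 of 46786 genes at 3 months and 9 of 46977 at 12 months. They were chosen by function around C7, and C7 was chosen by its 12-month difference between the labels. The 12-month differences of the 9 genes are therefore a description, with no p-value. The calls that the fit over all genes made among them are counted without being read as support. The 3-month differences come from libraries that this choice of C7 did not use. The other genes were chosen around C7 with earlier results of these data known. Prdm16 encodes a zinc-finger transcriptional regulator, and the series title names an age-dependent heart disease in its absence.

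RNA from dissected hearts was sequenced from 3 control and 3 knockout libraries of 3-month hearts and from 2 control and 2 knockout libraries of 12-month hearts. The labels give genotype, tissue and age, and no strain, sex, allele or Cre driver. Nothing in them says that libraries of a group came from separate animals, and the p-values therefore cover only the variation among these libraries, which may be technical. Values are FPKM (fragments per kilobase of transcript per 1000000 mapped fragments), which are scaled for length and can be compared between genes of a library. The 3-month hearts went into strand-specific libraries of poly(A) RNA, and the 12-month libraries were made at a sequencing centre, and the ages were deposited as separate tables, so levels were compared only within an age. In RNA from a bulk tissue, fewer cells of a type and less RNA per cell cannot be told apart.

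Complement is a cascade of plasma proteins. C1q, assembled from the chains of C1qa, C1qb and C1qc, recognises antibody and damaged surfaces, and its attached proteases C1r and C1s cleave C4 and C2. The enzyme they form cleaves C3, whose fragment binds covalently to the surface, and cleavage of C5 then starts the terminal pathway, in which C6, C7, C8 and C9 join C5b to form a membrane pore. C1 inhibitor, the product of Serping1, blocks the first proteases. The liver makes most of the circulating components, tissue macrophages are a known source of C1q, and stromal cells such as fibroblasts can make several of the others.

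Several features of the libraries bear on the values below. Prdm16 itself did not separate the labels at 3 months, with 1.44, 2.23 and 1.61 FPKM in controls against 1.43, 0.760 and 2.03 in the knockout-labelled libraries. At 12 months it was lower without overlap, at 6.31 and 5.05 against 4.02 and 3.58 FPKM, and did not pass (limma, Benjamini-Hochberg adjusted p = 0.340). The term "knockout-labelled" is therefore used for those libraries throughout. At 12 months Xist, the RNA of the inactive X chromosome, stood at 33.1 and 31.0 FPKM in controls and at 0.0911 and 0.0240 in knockout-labelled libraries, while the Y-linked gene Ddx3y stood at 0.0352 and 0.0114 against 24.5 and 20.7. Genotype and sex-linked expression thus cannot be told apart in any 12-month difference. All 6 libraries of 3 months held Ddx3y at 16.5 FPKM or more. Those libraries differed by label in airway transcripts. Scgb1a1, an airway gene, stood at 11.1, 26.8 and 10.6 FPKM in 3-month controls and 0.146, 0.319 and 0.151 in knockout-labelled libraries. The part of such tissue content in the other 3-month differences was not tested. Weakly expressed genes at 12 months had values at steps of whole reads (85.8% to 86.7% of them within 0.05 of a whole number), which gave depths, in units of 1000000 reads, of 29.5 and 30.9 for the controls and 26.2 and 21.5 for the knockout-labelled libraries, and depth could not be read from the 3-month values. In reads recovered in this way for 1007 single-transcript genes, the 12-month controls were close, with a median chi-square of 0.62 per gene, against 0.455 for counting noise alone, a mean of 2.78, and 11.0% of genes past the chi-square value for p = 0.05. The knockout-labelled libraries were far apart, with a median of 7.78 over 939 genes and 61.7% past that value. Of the 3-month libraries, knockout replicate 2 held the highest value of 40.5% of all 12200 genes tested and control replicate 2 that of 32.5%.

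C7 had the highest fold of the 9 genes at 12 months among those above the level filter. C7 binds the nascent C5b6 complex and lets it insert into membranes. Its gene lies on chromosome 15 from 4988762 to 5063740 (minus strand, GRCm38). C7 measured 1.22 and 1.22 FPKM in the 12-month controls, and 13.9 and 12.6 FPKM in the knockout-labelled libraries, with means of 1.22 ± 0.00377 and 13.3 ± 0.911 FPKM (SD, n = 2 each). These values rest on about 89.4 and 93.2 reads in the controls and 904.1 and 673.3 in the knockout-labelled libraries. Both knockout-labelled libraries therefore lay far above both controls, at a ratio of means of 10.9. As log2(FPKM + 1), a scale that compresses the changes of weakly expressed genes, the difference was 2.68, the 32nd highest of 13179 genes tested. With the smaller pseudocount of 0.1 FPKM it was 3.34.

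At 3 months C7 did not separate the labels. Its level was 1.90, 2.06 and 2.39 FPKM in the controls and 2.13, 1.91 and 3.18 FPKM in the knockout-labelled libraries (means 2.12 ± 0.251 and 2.41 ± 0.680, SD, n = 3 each). The groups overlapped, and the highest value was that of knockout replicate 3. The difference was 0.11 in log2 units (SE 0.16; adjusted p = 0.746 by limma with Benjamini-Hochberg correction), and it was −0.04 without knockout replicate 3. In these 6 libraries, all of which held Ddx3y, C7 thus ran from 1.90 to 3.18 FPKM. That range can only be set beside the 12-month levels and not tested against them, because the tables differ in age and preparation.

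The promoter of C7 is shown because its transcript had the widest difference of the set. Promoter windows, from 250 bases before to 50 bases after the transcript start, were taken from RefSeq (GRCm38.p6), which held 6 of the 9 genes. They were searched on both strands for 5 motifs, which may overlap each other. The TATA box, TATAAA, occurs in 13.6% of 32817 windows of the same length. A STAT-type element, TTCNNNGAA, occurs in 8.29% of them and an interferon-stimulated element in 3.43%. A PU.1 and Ets element, GAGGAA, occurs in 28.3%, and an AP-1 element, TGANTCA, in 7.81%. In the C7 window, chr15:5063724-5064023 on the minus strand, capitals mark a STAT-type match starting 164 bases before the start and a TATA match on the opposite strand starting 6 bases before it. A match describes these letters and is not evidence of a bound site.
C7: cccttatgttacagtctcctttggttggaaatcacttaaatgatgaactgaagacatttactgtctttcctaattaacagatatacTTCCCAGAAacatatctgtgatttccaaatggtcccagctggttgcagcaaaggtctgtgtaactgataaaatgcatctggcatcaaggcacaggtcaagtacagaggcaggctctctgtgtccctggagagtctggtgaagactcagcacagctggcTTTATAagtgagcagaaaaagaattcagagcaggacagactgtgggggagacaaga

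C6, which joins C5b just before C7, was listed at low values at both ages. Its gene is the neighbour of C7 on chromosome 15 (4727175 to 4814967, plus strand), 173.8 kb away. C6 was listed at 0, 0.0118 and 0.05 FPKM in 3-month controls and 0.0924, 0.0126 and 0.0257 in the knockout-labelled libraries. At 12 months it stood at 0.0150 and 0.0901 in controls and 0.0676 and 0.294 in knockout-labelled libraries. It passed the filter of a mean of at least 1 FPKM at neither age and was not tested, so 8 of the 9 genes were. An exact 0 in such a table can be a failed estimate: Ryr2, the cardiac calcium release channel, was listed at 0 in control replicate 2 of 3 months and at 25.9 and 29.1 FPKM in the other controls.

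No other gene within 1 Mb of C7 was called at either age. At 12 months 9 further genes of that stretch were tested (limma, Benjamini-Hochberg adjusted p from 0.393 to 0.785). The nearest of them, Card6, averaged 2.05 FPKM in controls and 1.65 FPKM in the others. Ttc33 averaged 25.9 and 35.8 FPKM, and AW549877 10.1 and 6.83.

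**Figure D1:**
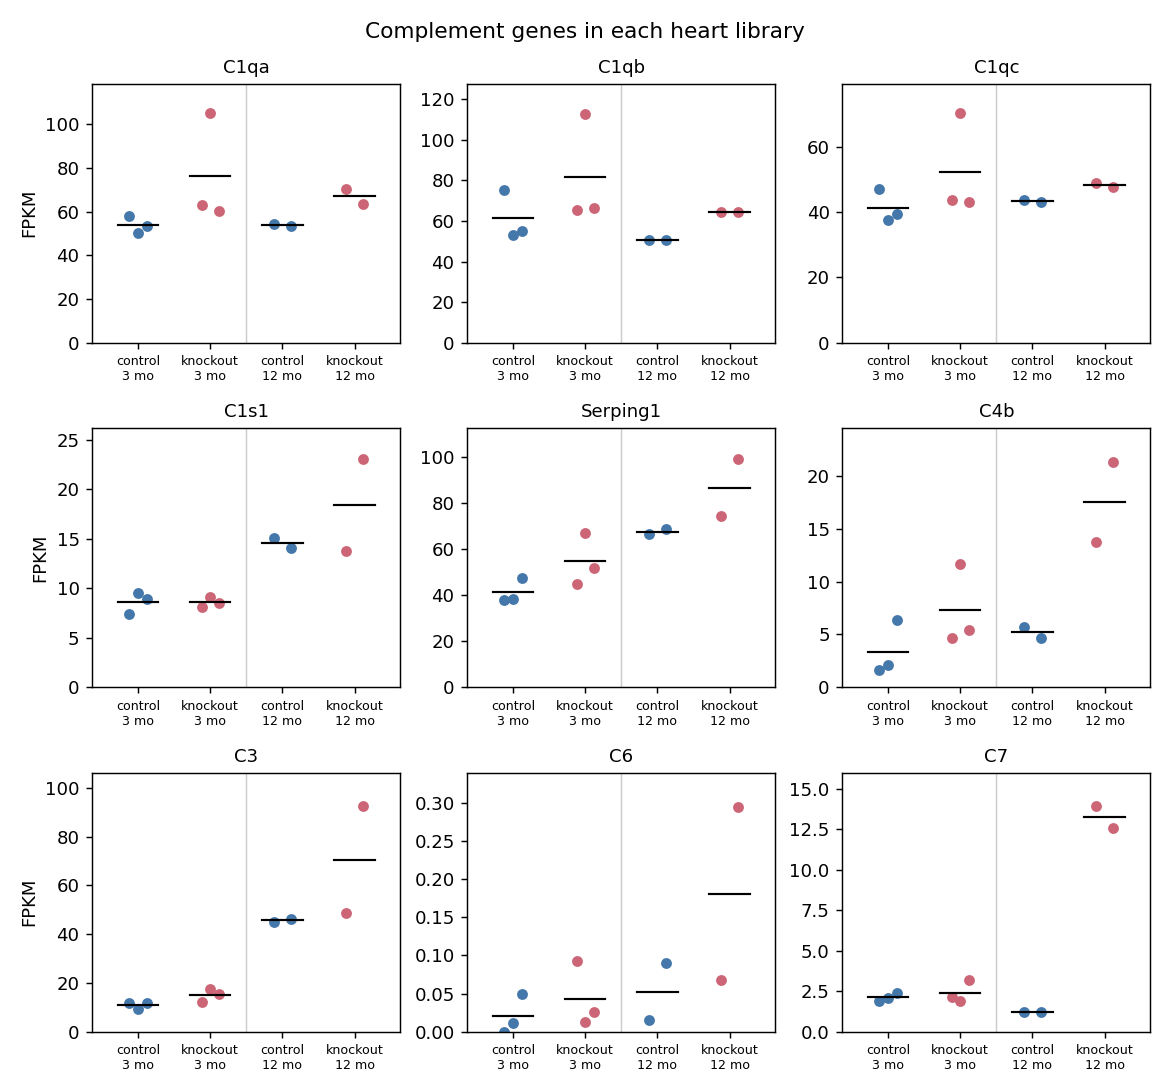
Expression of the 9 complement genes in FPKM (linear axes from 0, 1 panel per gene) in each library; points are libraries, horizontal bars are group means, and 3- and 12-month values come from separate tables. C7 stands at 12.6 and 13.9 FPKM in the 12-month knockout-labelled libraries and between 1.22 and 3.18 FPKM in all others.

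Of the thioester proteins that mark surfaces, C4b was higher in the knockout-labelled libraries at 12 months and C3 mainly in 1 library. C4b encodes C4, the substrate of C1s, and lies on chromosome 17 from 34728380 to 34743882. At 12 months C4b stood at 5.68 and 4.70 FPKM in controls and 13.7 and 21.3 FPKM in knockout-labelled libraries (means 5.19 ± 0.697 and 17.5 ± 5.40, SD, n = 2 each). Both knockout-labelled libraries were above both controls, and the log2 difference was 1.55, or 1.26 after rescaling to TPM (each library summing to 1000000). At 3 months C4b stood at 1.64, 2.13 and 6.37 FPKM in controls and 4.64, 11.7 and 5.46 in knockout-labelled libraries. Control replicate 3 lay inside the knockout-labelled range. The 3-month log2 difference of 0.98 (SE 0.41) did not pass (limma, Benjamini-Hochberg adjusted p = 0.256), and it was 0.62 without knockout replicate 2. C4a, a close copy 65.2 kb from C4b, averaged under 1 FPKM at both ages, and no source used here says how reads were divided between the copies, so the C4b values are uncertain to that extent.

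C3, the central component, lies on chromosome 17 from 57203970 to 57228136. At 12 months C3 measured 44.9 and 46.4 FPKM in controls and 48.6 and 92.4 FPKM in knockout-labelled libraries. Knockout replicate 1 was close to the controls and knockout replicate 2 carried most of the difference of 0.55 on the log2 scale. At 3 months C3 stood at 11.8, 9.18 and 12.0 FPKM in controls and 12.1, 17.7 and 15.5 in knockout-labelled libraries (means 11.0 ± 1.57 and 15.1 ± 2.82, SD, n = 3 each). The groups did not overlap, by a narrow margin between control replicate 3 and knockout replicate 1. The log2 difference of 0.42 (SE 0.16) did not pass over all genes (limma, Benjamini-Hochberg adjusted p = 0.227).

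At 3 months the 3 chains of C1q and Serping1 were the most abundant of the set. Their genes lie side by side on chromosome 4, with C1qa from 136895917 to 136898803, C1qc from 136889804 to 136893065 and C1qb from 136880129 to 136886187, all on the minus strand and 2.9 and 3.6 kb apart. At 3 months C1qa stood at 57.9, 50.2 and 53.6 FPKM in controls and 62.9, 105 and 60.3 FPKM in knockout-labelled libraries. C1qb stood at 75.5, 53.3 and 55.1 against 65.2, 113 and 66.5 FPKM. C1qc stood at 47.0, 37.6 and 39.3 against 43.6, 70.5 and 43.2 FPKM. For each chain knockout replicate 2 was the highest library, and the groups overlapped for C1qb and C1qc but not for C1qa. The log2 differences were 0.44, 0.38 and 0.31 for C1qa, C1qb and C1qc, and none passed (limma, Benjamini-Hochberg adjusted p from 0.294 to 0.442). Without knockout replicate 2 they were 0.19, 0.12 and 0.08.

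The proportions of the chains varied less than their level at 3 months. The ratio of C1qa to C1qc ran from 1.23 to 1.49 and that of C1qb to C1qc from 1.4 to 1.61, while the summed level of the 3 chains ran from 141.1 to 288.9 FPKM. At 12 months C1qa stood at 54.4 and 53.5 FPKM in controls and 70.5 and 63.6 in knockout-labelled libraries. C1qb stood at 50.8 and 50.8 against 64.5 and 64.4 FPKM, and C1qc at 43.7 and 43.1 against 48.8 and 47.6 FPKM. Both knockout-labelled libraries lay above both controls for each chain as deposited, with log2 differences of 0.31 for C1qa, 0.34 for C1qb and 0.15 for C1qc. After rescaling to TPM they were −0.01, 0.02 and −0.17, so the direction for C1qa and C1qc flipped with that rescaling. It also moved the median of all tested genes to −0.27. After median-of-ratios rescaling all 8 tested members stayed higher.

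The promoters of C1qb and C1qc are shown because these neighbouring genes were high together in knockout replicate 2 of 3 months. At 12 months the ratio of C1qb to C1qc was 1.16 and 1.18 in controls and 1.32 and 1.35 in knockout-labelled libraries, without overlap. Capitals mark the GAGGAA element, on the gene's strand from 30 bases before the start in C1qb (chr4:136886151-136886450, minus strand) and on the opposite strand from 193 bases before the start in C1qc (chr4:136892865-136893164, minus strand). None of the other 4 motifs was found in either window.
C1qb: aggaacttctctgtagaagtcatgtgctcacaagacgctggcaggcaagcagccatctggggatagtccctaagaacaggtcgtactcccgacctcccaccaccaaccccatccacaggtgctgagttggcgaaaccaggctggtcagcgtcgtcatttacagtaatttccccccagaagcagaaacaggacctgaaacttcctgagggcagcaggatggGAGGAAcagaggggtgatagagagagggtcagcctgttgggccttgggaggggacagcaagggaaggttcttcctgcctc
C1qc: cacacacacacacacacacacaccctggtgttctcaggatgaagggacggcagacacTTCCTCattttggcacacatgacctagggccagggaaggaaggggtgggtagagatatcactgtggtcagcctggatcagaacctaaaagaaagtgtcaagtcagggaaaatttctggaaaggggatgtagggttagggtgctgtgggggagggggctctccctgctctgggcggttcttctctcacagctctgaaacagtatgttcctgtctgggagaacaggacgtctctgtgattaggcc

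Macrophage markers were measured beside C1q. Of 11 tested at 3 months, 7 were higher and 4 lower in the knockout-labelled libraries, with a median log2 difference of 0.12, and none was called. Their summed level ran from 168.7 to 259.4 FPKM in controls and was 226.8, 369.8 and 228.1 FPKM in knockout replicates 1, 2 and 3. Knockout replicate 2 thus had the highest sum, as in C1q, and most of that sum was Lyz2. In Cd163, Cx3cr1 and F13a1 knockout replicate 2 was not the highest library. Lyz2, a lysozyme of macrophages, stood at 175, 106 and 128 FPKM in controls and 158, 262 and 162 in knockout-labelled libraries. Cd68 stood at 21.1, 12.5 and 12.9 against 15.9, 28.1 and 15.5. Csf1r, the receptor for macrophage growth factor, stood at 10.4, 10.4 and 10.1 against 9.88, 13.9 and 9.32. At 12 months 6 of 12 markers were higher and 6 lower (median −0.02), with sums of 212.6 and 220.7 FPKM in controls and 220.9 and 282 in knockout-labelled libraries. The part of macrophage number in the C1q values was not tested.

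**Figure D2:**
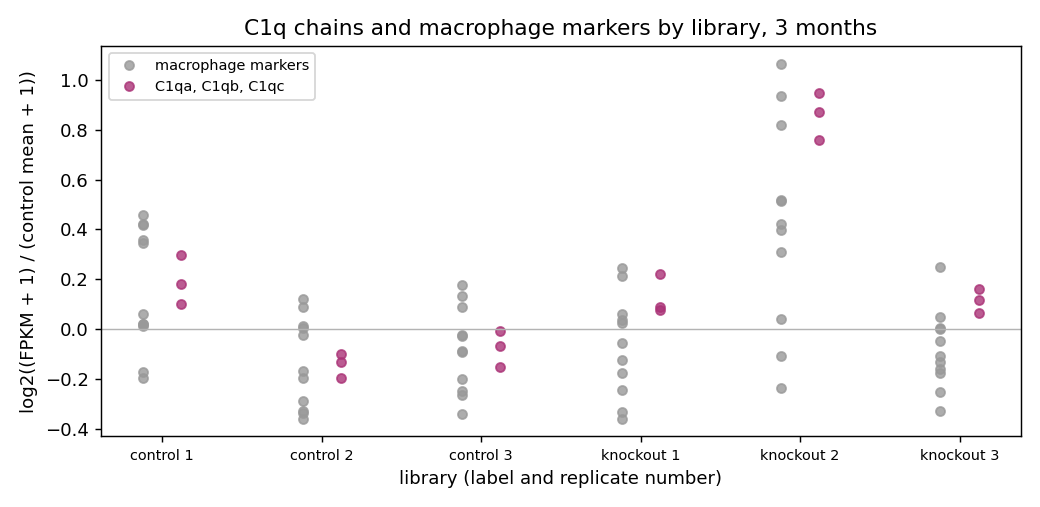
Each point is the log2 ratio of a gene's value in 1 library to its mean over the 3 controls, both with 1 FPKM added, at 3 months; x axis, the 6 libraries; grey, 11 macrophage markers; purple, C1qa, C1qb and C1qc. Knockout replicate 2 holds the highest values of all 3 chains, and its macrophage markers spread from below 0 to slightly above the chains.

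C1s1, the protease that cleaves C4 and C2, had the smallest difference of the 8 tested genes at 3 months. It lies on chromosome 6 from 124530345 to 124542359 and stood at 7.42, 9.56 and 8.93 FPKM in controls and 8.14, 9.08 and 8.5 in knockout-labelled libraries. The groups overlapped fully, with a difference of −0.00391 in log2 units (SE 0.12; adjusted p = 0.991 by limma with Benjamini-Hochberg correction). At 12 months C1s1 stood at 15.1 and 14.1 FPKM in controls and 13.8 and 23.0 in knockout-labelled libraries, of which only knockout replicate 2 exceeded the controls.

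Serping1, the gene of C1 inhibitor, was expressed at a level like that of the C1q chains. It lies on chromosome 2 from 84765387 to 84775444. At 3 months Serping1 stood at 38.1, 38.3 and 47.6 FPKM in controls and 44.8, 67.1 and 51.9 in knockout-labelled libraries. Control replicate 3 exceeded knockout replicate 1, and the log2 difference of 0.38 (SE 0.17) did not pass (limma, Benjamini-Hochberg adjusted p = 0.276). At 12 months it stood at 66.5 and 68.5 FPKM in controls and 74.2 and 99.2 in knockout-labelled libraries, a log2 difference of 0.34 as deposited and 0.02 after rescaling to TPM.

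Across the 8 tested genes at 3 months, 7 were higher and 1 lower in the knockout-labelled libraries, with a median log2 difference of 0.38, while 65% of all tested genes were higher, with a median of 0.09. None of the 8 was called (limma, Benjamini-Hochberg adjusted p under 0.05), against 0.746% of all tested genes. C3 and C4b had an unadjusted p under 0.05 (2 of 8, against 18.2% of all tested genes), and the groups did not overlap upwards in C3 and C1qa (2 of 8, against 20.1%). Knockout replicate 2 was the highest library in 6 of the 8, and without it the median was 0.20, with an all-gene median of 0.06.

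At 12 months all 8 were higher as deposited (median 0.34), against 51.5% of all tested genes (median 0.01). The fit over all genes called 0.395% of those tested, C7 among them and none of the other 7. That call follows from how C7 was chosen, and it was lost in 4 of 13 alternatives: without the filter on low values, with the controls counted once, and without either control. The groups did not overlap upwards in 7 of the 8, where 27.3% of all did so. Nothing is read from these counts. Rescaling to TPM moved the all-gene median to −0.27 and that of the 8 genes to 0.02, with 5 higher and 3 lower (C1qa, C1qc and C1s1). Relative to the all-gene median the 8 genes stood 0.33 higher as deposited and 0.29 higher after TPM rescaling. That excess comes from the same contrast by which C7 was chosen, and nothing is read from it either. Knockout replicate 1 was the highest library for C7 and the 3 C1q chains, and knockout replicate 2 for C3, C4b, C1s1 and Serping1.

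**Figure D3:**
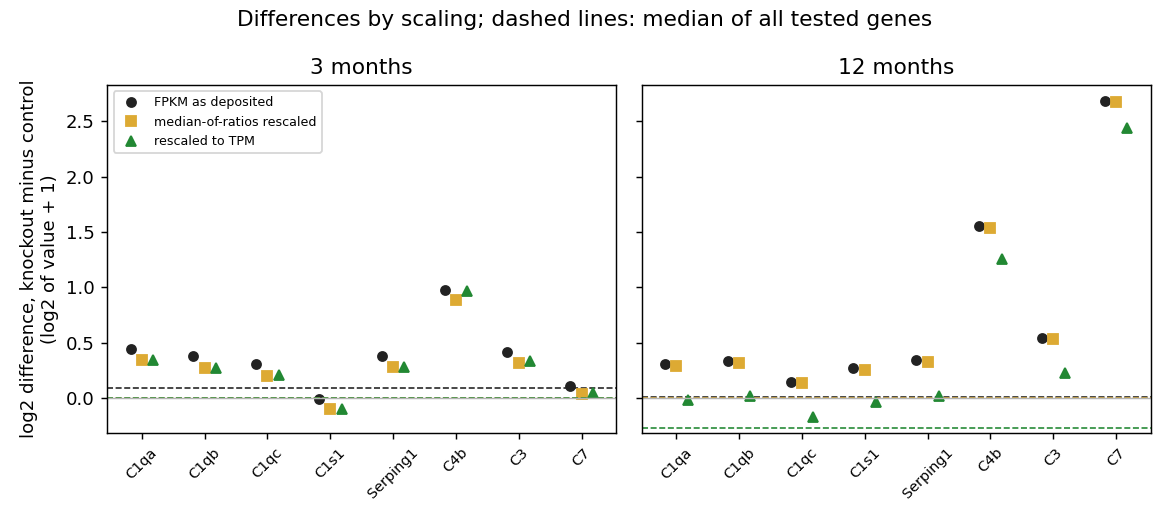
Log2 difference (knockout minus control, log2 of value + 1) of the 8 tested genes at 3 months (left) and 12 months (right) with FPKM as deposited, median-of-ratios rescaled or rescaled to TPM; dashed lines are the medians of all tested genes in the matching colours. At 12 months TPM rescaling lowers all 8 values and the all-gene median (to −0.27) together, and C7 and C4b stay above 1 under each scaling.

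The rest of the pathway was read from 51 further complement genes listed by function, also with earlier results of these data known. At 3 months 21 of the 51 passed the filter, 16 higher and 5 lower (median 0.34), and 1 was called, in the upward direction, where 0.746% of all tested genes were. An unadjusted p under 0.05 was found in 5 of the 21, near the 18.2% of all tested genes. At 12 months 23 passed the filter, 12 higher and 11 lower (median 0.04), and none was called by limma, with 6 at an unadjusted p under 0.05, where 13.6% of all tested genes had one. The 12-month groups did not overlap upwards in 7 and downwards in 5 of the 23, against 27.3% and 23% of all tested genes. At 3 months they did not overlap upwards in 3 and downwards in 2 of the 21, against 20.1% and 4.6%.

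Among recognition proteins and proteases the called gene was Colec11, a collectin of the lectin pathway. At 3 months Colec11 stood at 6.00, 5.43 and 5.15 FPKM in controls and 9.54, 10.9 and 9.53 FPKM in knockout-labelled libraries. All 3 knockout-labelled libraries lay well above all 3 controls, a difference of 0.75 in log2 units (SE 0.12; adjusted p = 0.0280 by limma with Benjamini-Hochberg correction). Colec11 no longer passed on leaving out any 1 of the 6 libraries (adjusted p from 0.0538 to 0.123), after TPM rescaling (adjusted p = 0.212), without the filter on low values (0.101) and with the replicate number as a block (0.126), with log2 differences from 0.66 to 0.84 over all alternatives. At 12 months it stood at 5.88 and 5.80 against 7.36 and 7.16 FPKM, a difference of 0.27 that became −0.01 after TPM rescaling. Masp1, a protease of the lectin pathway, stood at 3.09 and 3.43 FPKM in 12-month controls and 9.19 and 12.6 in knockout-labelled libraries, a difference of 1.47 in log2 units (SE 0.18; adjusted p = 0.119 by limma with Benjamini-Hochberg correction). C1ra, the partner protease of C1s1 and its neighbour at 6.9 kb, had log2 differences of 0.34 at 3 months and 0.35 at 12 months and did not pass at either age.

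Of the alternative pathway, Cfd had the widest 12-month difference downwards. Cfd encodes factor D, or adipsin, which fat cells make in large amounts. At 12 months Cfd stood at 19.8 and 19.3 FPKM in controls and 4.09 and 6.15 in knockout-labelled libraries, a difference of −1.77 in log2 units (SE 0.20; adjusted p = 0.102 by limma with Benjamini-Hochberg correction). All 7 tested adipocyte markers were lower in the same libraries, where 51.5% of all tested genes were higher. Car3 and Plin1 were called, against 0.395% of all tested genes. The marker sums were 81.0 and 87.3 FPKM in controls against 23.0 and 29.9. At 3 months Cfd ranged from 0.818 to 14.9 FPKM in controls and 2.17 to 13.8 in knockout-labelled libraries, while adipocyte marker sums ranged from 12.9 to 32.8 and from 16.4 to 24.9 FPKM. The part of adipose tissue in the Cfd values was not tested. Cfb, the protease of the alternative C3 convertase, and Cfp, properdin, passed at neither age.

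The other terminal components were listed at or near 0 except C8g. C8a, C8b and C9 were listed at 0 in all 4 libraries of 12 months and at 0 to 0.0854 FPKM at 3 months. Hc, the gene of C5, stood at 0.218 FPKM or less in every library. C8g, the gamma chain of C8, was the only gene of that list to pass the filter, at 12 months, with 2.59 and 1.22 FPKM in controls and 2.13 and 2.32 in knockout-labelled libraries. C7 was thus the only terminal component above 10 FPKM in any library.

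Among soluble regulators Clu, the gene of clusterin, which binds terminal complexes, had the lowest unadjusted p at 3 months. At 3 months Clu stood at 193, 201 and 243 FPKM in controls and 282, 461 and 334 in knockout-labelled libraries, a difference of 0.73 in log2 units (SE 0.19; adjusted p = 0.135 by limma with Benjamini-Hochberg correction). At 12 months it stood at 211 and 216 FPKM in controls and 498 and 672 in knockout-labelled libraries, a log2 difference of 1.43 (SE 0.18; adjusted p = 0.121 by the same limma fit). The groups did not overlap at either age, and neither difference passed. In 1 fit over both ages Clu (adjusted p = 0.00907 by limma) and Masp1 (0.00985) did pass at 12 months, and each passed in 3 of 13 alternatives, the other 2 being those without a knockout-labelled library. Cfhr2, a secreted complement protein, stood at 0.661, 0.734 and 0.991 FPKM in 3-month controls and 1.2, 2.35 and 1.36 in knockout-labelled libraries, a log2 difference of 0.53 (limma, Benjamini-Hochberg adjusted p = 0.192). Cfhr2 has close relatives in sequence, so its values may share reads.

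Membrane regulators and receptors held no called gene. Cd59a, which blocks pore assembly on host cells, stood at 65.8 and 69.1 FPKM in 12-month controls and 64.6 and 74.4 in knockout-labelled libraries, and at 43.5 to 50.9 against 50 to 65.3 at 3 months. Cr1l, the rodent C3 convertase inhibitor Crry, differed by −0.02 at 3 months and 0.06 at 12 months. Cd93, a surface protein of endothelial cells first described as a C1q receptor, lay lower with no overlap at both ages, with log2 differences of −0.36 at 3 months and −0.78 at 12 months, and did not pass at either (limma, Benjamini-Hochberg adjusted p = 0.271 and 0.257). C5ar1, the receptor for the C5 fragment C5a, stood at 2.05, 1.90 and 2.42 FPKM in 3-month controls and 1.35, 1.73 and 1.5 in knockout-labelled libraries. At 12 months C5ar1 stood at 1.48 and 1.31 against 1.85 and 2.92 FPKM.

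**Figure D4:**
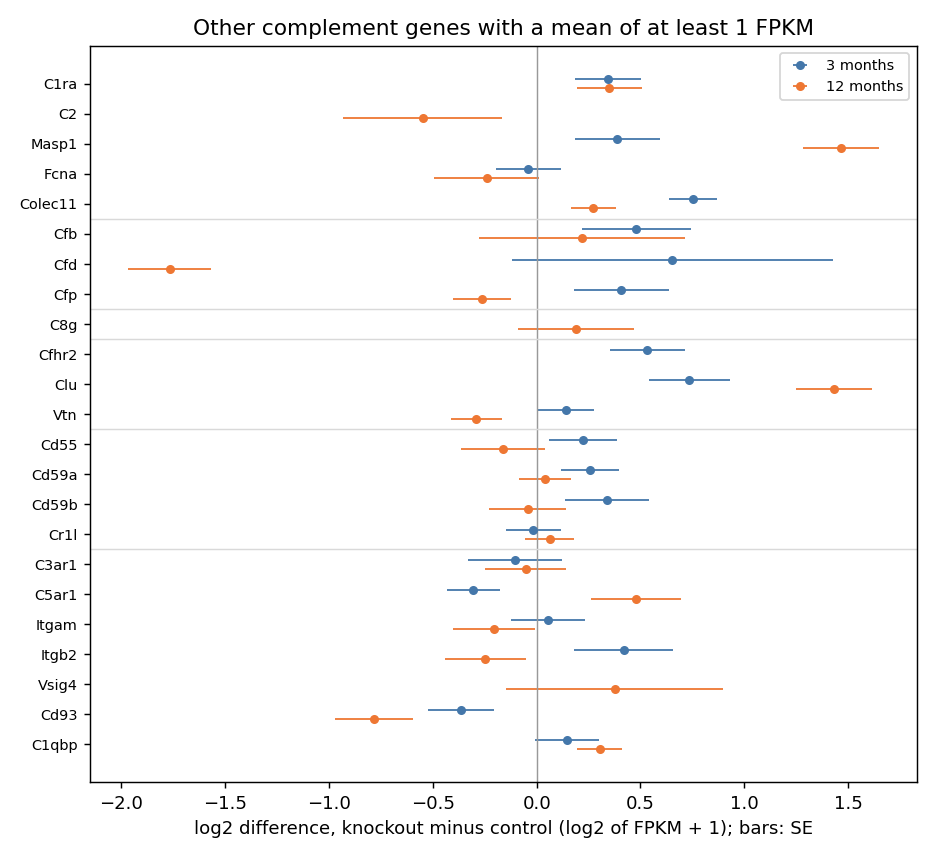
Log2 difference (knockout minus control, log2 of FPKM + 1; bars, SE) at 3 months (blue) and 12 months (orange) of the other complement genes whose mean reached 1 FPKM at that age, grouped by role and separated by grey lines, with 1 gene not plotted. Colec11 at 3 months is the called gene; Masp1 and Clu stand above 1 and Cfd below −1 at 12 months without being called.

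The difference between ages was tested for the 20 of these genes measured above the filter at both ages. None was called (limma interaction over 11580 genes, of which 1.38% were called), and 5 had an unadjusted p under 0.05, where 15.3% of all genes did. The lowest were C5ar1 (log2 difference between ages 0.79, SE 0.23, limma adjusted p = 0.123), Masp1 (1.08, SE 0.32, adjusted p = 0.131) and Colec11 (−0.48, SE 0.17, adjusted p = 0.190). The same test was not read for C7 and the other 8 genes. C7 was chosen by its 12-month contrast, and the others around C7 with earlier results of these data known. The 20 tested genes were listed by function, also with earlier results known, so their test shares that limit.

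The genes most like C7 over the 10 libraries included 4 that lie on the Y chromosome. Likeness was Pearson's r of log2(FPKM + 1), centred within each age, among the 8964 genes whose mean reached 2 FPKM at both ages. The 8 highest were Kdm5d (r = 0.986), Tmtc1 (0.982), Ddx3y (0.982), Fmo2 (0.981), D3Ertd751e (0.980), Eif2s3y (0.980), Uty (0.979) and Sgk1 (0.967). Of these Kdm5d, Ddx3y, Eif2s3y and Uty are Y-linked, and over the 6 libraries of 3 months alone their r with C7 was 0.324, −0.403, −0.553 and −0.193. All 6 of those libraries held Ddx3y at 16.5 to 19.9 FPKM, so r among them cannot show whether C7 follows sex-linked expression. Over the same 6 libraries r was 0.787 for Tmtc1, 0.709 for D3Ertd751e, 0.691 for Fmo2 and −0.083 for Sgk1. Fmo2, a flavin monooxygenase, averaged 5.71 FPKM in 12-month controls and 31 in the knockout-labelled pair, and Tmtc1 13.9 and 42.1. C7 was chosen by its 12-month contrast, and that contrast carries most of its variation after centring. The ranking therefore mainly lists genes that differ in the same 12-month libraries, and no link to C7 is read from it. The 10 points share 2 tables and 4 groups.

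For the mean of the C1q chains the 8 genes most alike were Il3ra (r = 0.976), Mcts1 (0.975), Dynll1 (0.968), Atp6ap2 (0.968), Vps16 (0.960), Cox20 (0.959), Kin (0.954) and Ccdc23 (0.954). None of the 8 is among the 12 listed macrophage markers. With 8964 genes compared, so short a list would mostly be missed, and nothing is read from this. The C1q chains were highest at 3 months in knockout replicate 2, which held the highest value of 40.5% of all tested genes. Cox20, an assembly factor of cytochrome oxidase, averaged 69.1 and 103 FPKM at 3 months, and Il3ra, a cytokine receptor chain, 2.88 and 3.71.

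Markers of the cell types that a dissected heart can hold were summed in each library, from FPKM as deposited. Of all tested genes 65% were higher at 3 months and 51.5% at 12 months. The counts of markers below are to be read beside these shares. Cardiomyocyte markers ran from 21960 to 30230 FPKM at 3 months and from 54940 to 58860 at 12 months, with 5 of 8 higher at 3 months and 3 of 8 at 12 months, and none called. At 12 months Myl2, a myosin light chain, averaged 24000 FPKM in controls and 29200 in the knockout-labelled pair. Tnni3 averaged 11000 FPKM in both groups, and Tnnt2 averaged 7210 and 7230. Fibroblast markers at 12 months summed to 2108 and 2089 FPKM in controls and 1797 and 1858 in knockout-labelled libraries, with 3 of 12 higher. The widest log2 difference among these 12 was that of Col3a1 (−1.81). At 3 months 11 of 12 were higher, with sums of 683.4 to 962.6 FPKM in controls against 793.8 to 1340 in knockout-labelled libraries. The top sum was that of knockout replicate 2, which held the highest value of 40.5% of all tested genes. Gsn (849 and 842 FPKM), Dcn (464 and 568) and Col3a1 (397 and 115) were the highest fibroblast markers at 12 months, as means of controls and of knockout-labelled libraries. Mesothelial and epicardial markers summed to 35.5 and 33.9 FPKM in 12-month controls and 6.22 and 23.3 in knockout-labelled libraries (5 of 6 lower), with Msln at 10 and 3.17 and Upk3b at 9.20 and 3.44 on average. At 3 months they ran from 4.42 to 11.2 FPKM in controls and 6.07 to 12.4 in knockout-labelled libraries. Smooth muscle markers (5 of 6 lower) summed to 332.4 and 328.7 against 235.4 and 175.1 FPKM at 12 months, and endothelial markers (5 of 6 lower) to 363.8 and 358.5 against 334.8 and 303.7. At 3 months 4 of 5 smooth muscle and 2 of 6 endothelial markers were higher, none called. Neutrophil markers were lower in 4 of 4 at 12 months and higher in 4 of 4 at 3 months, without a call, and S100a9 led them at 11.8 and 5.69 FPKM on average at 12 months. Of the liver markers 3 of 3 tested were higher at 3 months and 3 of 4 at 12 months, none called. At 12 months they summed to 10.8 FPKM in each control and to 10.8 and 24.2 in knockout replicates 1 and 2, with Ahsg at 3.99 and 4.21 against 6.02 and 11.6 FPKM. Alb, the gene of albumin, was listed at 0 in all 12-month libraries and at 0.536 FPKM or less at 3 months. Airway markers summed to 15.4 to 45.7 FPKM in 3-month controls and 0.505 to 1.29 in knockout-labelled libraries, and to under 1 FPKM at 12 months. Scgb1a1 and Bpifa1 were called at 3 months, where 0.746% of all tested genes were. The part of these cell types in the complement values was not tested.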

How the data were processed

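The deposited tables hold FPKM values per gene that the authors made. The submitters' processing notes name Cufflinks 2.1.1, STAR 2.5.1b, TopHat2 2.1.0, FastQC and the builds mm10 and GRCm38, without saying which served which age. The deposited 12-month table is named as lacking outliers, without a criterion. Repeated identifiers (69 rows at 3 months) were summed to 1 gene. Symbols and positions came from GENCODE M21.

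Within each age, genes whose mean reached 1 FPKM were tested on log2(FPKM + 1) with limma 3.58.1 in R 4.3.3, with a trended prior and Benjamini-Hochberg adjustment over all genes tested; "called" means an adjusted p under 0.05. The age difference was an interaction over the 4 group means. The fit was tested on simulated data. Groups came from the genotype and age labels. TPM here is FPKM rescaled to a sum of 1000000. The members and gene lists were chosen with earlier results of these data known.

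Named with values were the 9 members, each called complement gene, the 3 complement genes with the lowest unadjusted p at each age, leading genes of each cell type list (macrophage, fibroblast, mesothelial, smooth muscle, endothelial, adipocyte, neutrophil, liver, airway and cardiomyocyte) and the 8 genes most like C7 and the C1q mean. Further complement genes were named by role. Plin1, Ryr2 and the genes named near C7 were singled out after their values were seen. Alternatives were pseudocount, filter, rescaling, replicate block, a joint fit, the prior and leaving out each library. Counting the 12-month controls as 1 sample was added after seeing the data. The values of 1 complement gene in the counts are not reported here.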

Additional observations from a re-analysis of the deposited data

Results flagged for a closer look

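C5ar1 was looked at again because all knockout-labelled libraries lay below all controls at 3 months and above them at 12 months. The log2 difference at 12 months less that at 3 months was 0.79 (SE 0.23), and the limma interaction test did not pass over all genes (Benjamini-Hochberg adjusted p = 0.123).

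Cfhr2 lay above all controls in the 3 knockout-labelled libraries at 3 months and below both at 12 months, where it was at 0.0984 FPKM or less. The log2 difference at 12 months less that at 3 months was −0.60 and was not tested, since Cfhr2 was under the level filter at 12 months.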

How the results depend on the processing

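The members' median difference kept its direction under all alternatives run at both ages, and no member was called at 3 months under any. C7 at 12 months kept a log2 difference of 2.68 without the filter on low values and with the controls averaged and counted once, but was then not called (0 members called in each); leaving out a library gave 2.62 to 2.75. Members called at 12 months ranged from 0 to 7 over the leave-one-out fits. Without a control no gene of the table was called, and without knockout replicate 1 or 2 the spread rested on the closely similar controls, with 4409 and 654 genes called. Calls among the other complement genes at 3 months were 0 with no filter, after TPM rescaling, with the replicate block and in each leave-one-out fit (0 to 0). At 12 months they were 2 (Clu and Masp1) in 1 fit over both ages and 0 to 10 over the leave-one-out fits, and for the age difference 0 to 1. Deviations of same-numbered libraries from their group means had correlations of −0.121, −0.458 and −0.143 at 3 months and −0.006 at 12. These values are tied within an age, and with 2 libraries per group both 12-month pairs must give the same value. The numbers were not taken as pairs. The replicate block gave 29 calls over all genes in place of 91 at 3 months and 40 in place of 52 at 12, with 0 and 1 members called.

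At 3 months, values rescaled to TPM turned direction in Itgam (−0.0132). At 3 months, values after median-of-ratios rescaling turned direction in Itgam (−0.0069). Leaving out 1 library turned the direction at 3 months in Fcna (−0.15 to 0.0514), Cr1l (−0.11 to 0.0826), C3ar1 (−0.347 to 0.0611), C1s1 (−0.098 to 0.0654), Cfd (−0.0082 to 1.56), Itgam (−0.0968 to 0.171), C7 (−0.0448 to 0.217). At 12 months, values rescaled to TPM turned direction in C1qa (−0.0135), C1qc (−0.168), C1s1 (−0.0338), Colec11 (−0.0096), Cfb (−0.0159), C8g (−0.0248), Cd59a (−0.279), Cr1l (−0.25), C1qbp (−0.0191). Leaving out 1 library turned the direction at 12 months in Cd59b (−0.223 to 0.136), C8g (−0.155 to 0.538), Cr1l (−0.018 to 0.145), Fcna (−0.528 to 0.0461), Cd55 (−0.41 to 0.0832), C3ar1 (−0.246 to 0.14), C1s1 (−0.0761 to 0.621), Cfb (−0.468 to 0.905), Cd59a (−0.0596 to 0.142), Vsig4 (−0.349 to 1.1). The cause was not tested.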
